A study of Mus musculus with 4 samples.

Results

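The genes described here are 10 inhibitors that act on mitogen-activated protein kinase (MAPK) signaling, namely the phosphatase genes Dusp1, Dusp4, Dusp5, Dusp6 and Dusp14, the Sprouty genes Spry1, Spry2 and Spry4, and the Spred genes Spred1 and Spred2. They were taken by name from the probes of the array and make up 10 of the 31829 gene names on it. Each was measured in mouse embryonic fibroblasts (MEFs) of 2 genotypes, wild-type (WT, p53+/+) and p53-/-, without and with doxorubicin, an anthracycline that damages DNA by trapping topoisomerase II. The 4 groups were therefore WT and p53-/- MEFs left untreated and the same genotypes given doxorubicin, and they shared the cell type and the labeling of 200 ng of total RNA with Cy3. The series asks how the response to doxorubicin differs with p53. Neither the dose and time used for the arrays nor the culture behind each sample is given in the labels.

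MAPK cascades carry signals from receptors at the cell surface to the nucleus through ERK, JNK and p38 kinases, which are switched on by phosphorylation of a threonine and a tyrosine in their activation loop. Dual-specificity phosphatases (DUSPs) remove these phosphates, and many of their genes are themselves induced by MAPK signaling or by stress, which makes them feedback inhibitors. Sprouty and Spred proteins act upstream, between receptor tyrosine kinases and RAF, and in fibroblasts they are known as brakes on growth factor signals to ERK.

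Each group was 1 array, on 1 slide shared by the 4 groups. Differences between groups therefore have no replicate check and no p-value, and a condition cannot be told apart from the position of its array on the slide. Levels are given as the processed signal of the deposited files, and ratios compare signals after division by the 75th percentile of the same array, which was 2074 without and 1819 with doxorubicin in WT MEFs, and 1881 without and 2421 with it in p53-/- MEFs. A ratio of 2-fold (1 on the log2 scale) was the limit for calling a gene higher or lower. The only error available is that between repeat spots of 1 probe on 1 array, which came to an SD of 0.09 for a log2 ratio of signals of at least 350 and 0.20 for dimmer ones. It holds no error between cultures or arrays. All 10 genes were well above background on all 4 arrays, and 0 spots of the array were saturated. Dusp5, Spry2 and Spry4 were dim, and in untreated p53-/- MEFs each of them lay below the brightest of 153 negative control spots (signal 250.1), where 3 negative controls were at or above each of the 3 genes.

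The genotype labels were checked on Trp53 (which encodes p53) and its target genes Cdkn1a and Mdm2. The signal of Trp53 was 1228 and 3442 in untreated and treated WT MEFs and 442 and 543 in the p53-/- arrays, and whether the probe lies in the deleted part is not known here. Cdkn1a, which encodes the inhibitor p21, had signals of 28619, 105995, 977 and 5912 in that order of arrays. Its log2 ratio with doxorubicin was 2.08 in WT and 2.23 in p53-/- MEFs. The other probe of Cdkn1a gave 1.16 in WT MEFs and no ratio in p53-/- MEFs, for lack of signal well above background on both arrays. Mdm2, which encodes the ubiquitin ligase of p53, had signals of 52283, 183079, 13656 and 24286 and log2 ratios of 1.998 and 0.47. All 10 fibroblast markers were well above background on every array, with a summed level of 574 to 865 times the 75th percentile. Of 9 leukocyte markers 6 to 8 were well above background (summed level 15.2 to 23.3, most of it Itgam), of 5 endothelial markers 2 to 4 (2.54 to 4.49), of 6 epithelial markers 3 to 5 (5.37 to 17.9) and of 5 muscle markers 2 or 3 (0.346 to 1.22). Cdh5, Epcam, Myod1 and Ckm were not well above background on any array. Treated over untreated, the log2 ratios of the 10 fibroblast markers had a median of -0.61 in WT and -0.27 in p53-/- MEFs. In WT they ran from -3.36 for Pdgfra to 0.26 for Col1a1, with 4 at least 2-fold lower. In p53-/- MEFs they ran from -1.73 for Pdgfrb to 0.80 for Thy1, with 1 at least 2-fold lower. The epithelial sum was highest in treated p53-/- MEFs, where Krt18 gave 16.6 of the 17.9. Krt8 and Cdh1 were also highest there, but Krt14 and Krt5 were highest in treated WT MEFs. The part of these shifts in the values below was not tested, and in bulk RNA fewer cells of a type and less RNA per cell cannot be told apart.

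All 5 phosphatase genes had higher scaled levels with doxorubicin in both genotypes. Ratios above 0 were found for 8893 of 17546 measured genes in WT and for 8499 of 16978 in p53-/- MEFs. In WT MEFs 3 of the 10 genes passed the 2-fold limit upward (Dusp4, Dusp14 and Dusp5), where 11% of all 17546 measured genes did so, and 1 passed it downward (Spry1), where 10.4% did so. In p53-/- MEFs 3 genes passed it upward (Dusp4, Dusp1 and Dusp14) against 9.24% of 16978 genes, and 0 passed it downward against 6.89%. The median log2 ratio of the 5 phosphatase genes was 1.40 in WT and 1.26 in p53-/- MEFs, that of the 5 Sprouty and Spred genes was -0.29 and -0.06, and that of all measured genes was 0.01 and 0.00. The 2 ratios come from separate pairs of arrays.

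**Figure D1:**
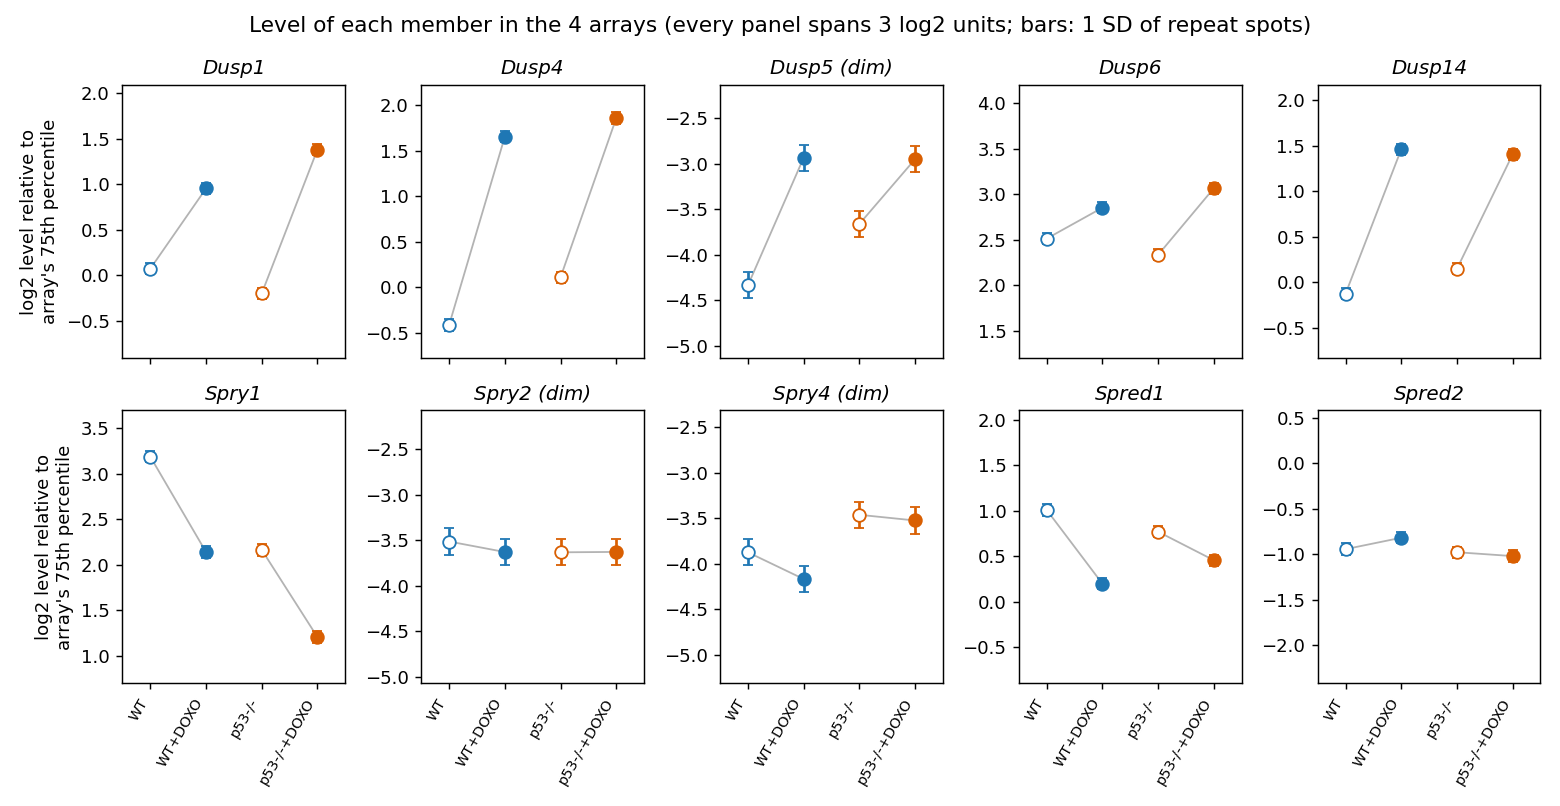
Level of each of the 10 genes in the 4 arrays, as log2 of the signal over the 75th percentile of the array (vertical axis), by group (horizontal axis). Open circles are untreated and filled circles doxorubicin-treated MEFs, blue is WT and orange p53-/-, lines join the arrays of a genotype, bars are 1 SD of repeat spots, and each panel spans 3 log2 units around its own middle. The treated circle lies above the untreated one for all 5 phosphatase genes in both genotypes, and below it for Spry1 and Spred1.

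Dusp4 encodes a nuclear phosphatase of ERK and JNK. Its probe (chr8:35882045-35882104, mm9, plus strand) gave a signal of 1560 in untreated WT, 5734 in treated WT, 2032 in untreated p53-/- and 8783 in treated p53-/- MEFs. Both treated arrays lay above both untreated ones. With doxorubicin Dusp4 rose 4.19-fold in WT (log2 2.07) and 3.36-fold in p53-/- MEFs (log2 1.75). Of all measured genes, 97.2% and 97.0% had a smaller ratio. In order of scaled level, treated p53-/- was followed by treated WT, untreated p53-/- and untreated WT MEFs, each step being larger than the spot SD.

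Dusp4 had the widest range of the 10 genes over the 4 arrays, 2.27 on the log2 scale. The 3 genes whose 4 log2 levels, centered on their mean, lay nearest to those of Dusp4 among 16538 genes were Hpx, Skap1 and Havcr2, at Euclidean distances of 0.08, 0.16 and 0.16. Hpx encodes the heme-binding plasma protein hemopexin, Skap1 an adaptor of T cells and Havcr2 the immune checkpoint receptor TIM-3. The signal of Hpx was 308, 1070, 408 and 1700 in untreated WT, treated WT, untreated p53-/- and treated p53-/- MEFs. Its log2 ratios were 1.98 and 1.69, against 2.07 and 1.75 for Dusp4. Skap1 had log2 ratios of 2.12 and 1.71, and Havcr2 of 2.24 and 1.85. Both were dim without doxorubicin, with signals of 123 (Skap1) and 96.1 (Havcr2) in WT and 149 and 121 in p53-/- MEFs. In untreated p53-/- MEFs both lay below the brightest negative control (250.1), and in untreated WT MEFs Havcr2 did (108.3). The likeness rests on 4 arrays and is a description.

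Dusp14 encodes a small atypical phosphatase that lacks the MAPK-binding domain of the classical family. Its probe (chr11:83861916-83861975, mm9, minus strand) gave signals of 1903 and 5014 in untreated and treated WT and of 2087 and 6419 in untreated and treated p53-/- MEFs. Again the treated arrays were both above the untreated ones. Dusp14 rose 3.004-fold in WT (log2 1.59) and 2.39-fold in p53-/- MEFs (log2 1.26). Scaling to the array median in place of the 75th percentile took the p53-/- ratio to 0.96, under the limit. Between the treated arrays the scaled levels of 2.76 in WT and 2.65 in p53-/- differed by less than the spot SD.

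Dusp1 encodes a nuclear phosphatase of p38, JNK and ERK and is a classical immediate early gene. The files place its probe at chr17:26642526-26642536 (mm9, minus strand), an interval shorter than the probe. Its signal was 2183 in untreated WT, 3525 in treated WT, 1639 in untreated p53-/- and 6311 in treated p53-/- MEFs. The lowest and the highest of these were both p53-/- arrays. Dusp1 rose 2.99-fold with doxorubicin in p53-/- MEFs (log2 1.58), above 96.2% of all genes. In WT MEFs the ratio was 1.84-fold (log2 0.88), under the limit and above 86.9% of all genes.

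The promoter of Dusp1 is shown because it held the cyclic AMP response element (CRE) TGACGTCA, the site known to be bound by CREB and ATF factors. The 250 bases before the start of each gene in RefSeq (GRCm38.p6) were searched on both strands, and TGACGTCA was in 1.55% of 32851 promoters, its shorter core TGACG (which lies within it) in 17.8% and the E-box CACGTG in 6.02%. The stretch from base 200 to base 100 before the start (chr17:26508572-26508672, GRCm38.p6, minus strand) is written 5′ to 3′, with these motifs in capitals.
Dusp1: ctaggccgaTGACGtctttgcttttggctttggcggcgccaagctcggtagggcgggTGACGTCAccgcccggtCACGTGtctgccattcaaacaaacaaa
The shorter core lay at base 191 before the start, the whole element at base 143 and the E-box at base 126, each counted at its first base. The whole element holds the core on both strands.

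Dusp5 encodes a nuclear phosphatase specific for ERK. Its probe (chr19:53615682-53615741, mm9, plus strand) was dim, with signals of 103 in untreated WT, 238 in treated WT, 149 in untreated p53-/- and 313 in treated p53-/- MEFs. The treated arrays were both above the untreated ones, and in untreated WT MEFs 1 of the 153 negative controls was at or above its signal. The ratio with doxorubicin was 2.64-fold in WT (log2 1.40), past the limit, and 1.64-fold in p53-/- MEFs (log2 0.71), under it. These values moved with the background correction. With normexp correction they were 0.88 and 0.42 on the log2 scale, so that the WT ratio was under the limit too. The scaled levels of the treated arrays, 0.131 in WT and 0.129 in p53-/-, differed by less than the spot SD of 0.20 on the log2 scale.

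The promoter of Dusp5 is shown because it held a pair of adjacent CArG boxes, the motif known to be bound by serum response factor, which was found in 1.47% of the same promoters. The stretch from base 120 to base 21 before the start (chr19:53529025-53529124, GRCm38.p6, plus strand) has the CArG boxes and the core TGACG, here on the other strand, in capitals.
Dusp5: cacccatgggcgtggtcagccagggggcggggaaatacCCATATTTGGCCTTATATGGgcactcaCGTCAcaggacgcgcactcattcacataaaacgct
The CArG boxes began at bases 82 and 72 before the start and the core at base 55. A match in these letters is a description and not evidence of binding.

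Promoters of the same kind were found for 8 of the 10 genes, all but Dusp4 and Spry4. The core TGACG was also in that of Spred2, at base 51. The ETS core GGAAG, which 64.1% of all promoters held, occurred 5 times in Spred2, 2 times each in Dusp6 and Dusp14 and 1 time each in Dusp5 and Spred1. The AP-1 motif TGANTCA (6.75% of all promoters) and the p53 decamer motif (7.13%) were in none of the 8 windows, and Spry1 and Spry2 held none of the 7 motifs searched. The absence of a motif says only that its letters are not in this window.

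Dusp6 encodes the cytoplasmic phosphatase of ERK and is widely used as a readout of ERK activity. Its probe (chr10:98729985-98730044, mm9, plus strand) gave signals of 11839 and 13135 in untreated and treated WT and of 9490 and 20283 in untreated and treated p53-/- MEFs. The treated p53-/- array was the highest and the untreated p53-/- array the lowest. The ratio with doxorubicin was 1.27-fold in WT (log2 0.34) and 1.66-fold in p53-/- MEFs (log2 0.73), both under the limit. With the array median as the scale these became 0.06 and 0.43 on the log2 scale. That scale also lowered the median over every measured gene, to -0.27 (WT) and -0.30 (p53-/-).

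Spry1 encodes a Sprouty protein that is itself induced by growth factors and blocks signaling from their receptors to ERK. Its probe (chr3:37543403-37543462, mm9, plus strand) had a signal of 18872 in untreated WT, 8008 in treated WT, 8424 in untreated p53-/- and 5581 in treated p53-/- MEFs. Untreated WT MEFs stood above the other arrays, and treated p53-/- MEFs below them. With doxorubicin Spry1 fell 2.07-fold in WT MEFs (log2 -1.05), with 9.59% of all genes below it, and the ratio in p53-/- MEFs was -0.96 on the log2 scale, just under the limit. The scaled level was 9.10, 4.40, 4.48 and 2.30 times the 75th percentile in the same order of groups. The levels of treated WT and untreated p53-/- MEFs, next to each other in this order, differed by less than the spot SD. Scaled to the array median, the p53-/- ratio was -1.26 and past the limit.

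Spry2 and Spry4 encode further Sprouty proteins, and both were dim. The probe of Spry2 (chr14:106291845-106291904, mm9, minus strand) had signals of 182, 147, 152 and 196 in untreated WT, treated WT, untreated p53-/- and treated p53-/- MEFs. Its log2 ratios with doxorubicin were -0.12 in WT and 0.00 in p53-/- MEFs, and no neighbors in the order of its 4 scaled levels differed by more than the spot SD. The probe of Spry4 (chr18:38745923-38745982, mm9, minus strand) had signals of 142, 101, 171 and 211. Its log2 ratios with doxorubicin were -0.29 in WT and -0.06 in p53-/- MEFs. Both p53-/- arrays lay above both WT arrays in scaled level, at 0.0909 and 0.0870 against 0.0683 and 0.0557.

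Spred1 encodes a protein that brings the RAS inhibitor neurofibromin to the membrane. It alone of the 10 genes had 2 probes. The brighter probe (chr2:117005906-117005965, mm9, plus strand) had signals of 4174, 2088, 3209 and 3325, and the other (chr2:117004952-117005011) of 2491, 1484, 1995 and 1849, in untreated WT, treated WT, untreated p53-/- and treated p53-/- MEFs. Treated arrays had the lower scaled level in both genotypes by both probes. The log2 ratios with doxorubicin were -0.81 in WT and -0.31 in p53-/- MEFs by the brighter probe, and -0.56 and -0.47 by the other. With the array median as the scale, the brighter probe gave -1.09 in WT MEFs, past the limit.

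Spred2, a relative of Spred1 with the same domains, had signals of 1079, 1032, 956 and 1195 in the same order (chr11:19922416-19922475, mm9, plus strand). Its log2 ratios with doxorubicin were 0.13 in WT and -0.04 in p53-/- MEFs. The WT ratio was above the spot SD of 0.09 but was -0.15 with the array median as the scale. Among the 5 Sprouty and Spred genes, 4 had a ratio below 0 in each genotype. Over all measured genes, 8653 of 17546 in WT and 8479 of 16978 in p53-/- MEFs were below 0. The ratios of Spry2 in WT and of Spry4 and Spred2 in p53-/- MEFs were within the spot SD. With the array median as the scale all 5 were below 0 in both genotypes. On that scale the median of all measured genes was -0.27 in WT and -0.30 in p53-/- MEFs.

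**Figure D2:**
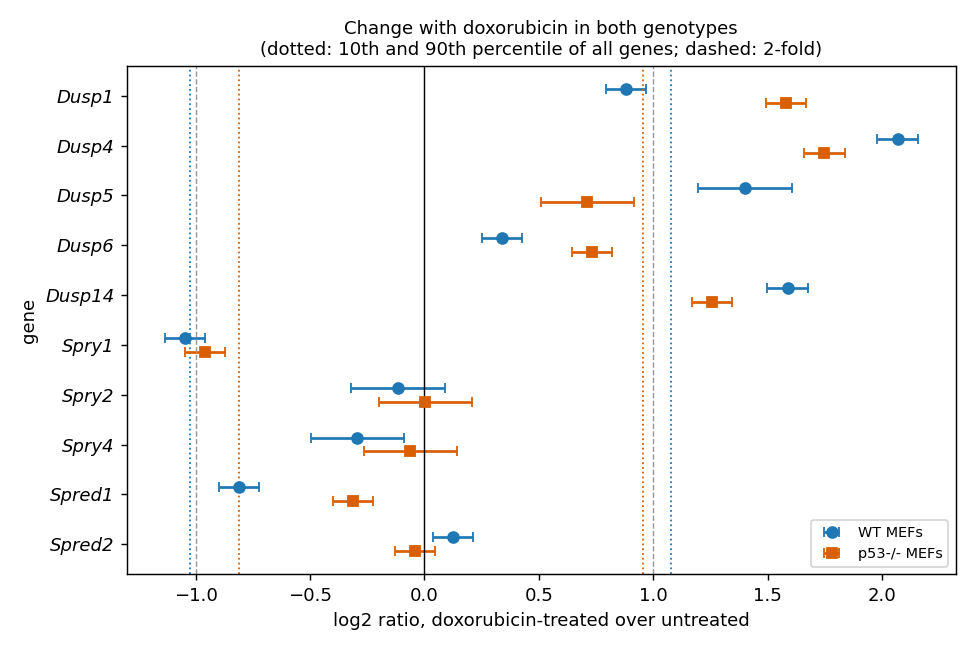
Log2 ratio of doxorubicin-treated over untreated MEFs (horizontal axis) for each of the 10 genes (vertical axis), with WT as blue circles and p53-/- as orange squares. Bars are 1 SD of repeat spots for a ratio, dotted lines the 10th and 90th percentile of all measured genes of that genotype (-1.03 and 1.08 in WT, -0.81 and 0.95 in p53-/-), and dashed lines the 2-fold limit. Dusp4 and Dusp14 lie right of the limit in both genotypes, and Spry1 lies left of or beside it.

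Without doxorubicin, the genotypes were set side by side on the untreated arrays. Spry1 was 2.03-fold lower in p53-/- than in WT MEFs (log2 -1.02), with 2.46% of all genes below it. It was the 1 gene past the limit downward, where 2.62% of 17318 genes were, and 0 passed it upward, where 2.15% did so. With quantile normalization the Spry1 ratio was -0.97, under the limit. Dusp5 (log2 0.67), Dusp4 (0.52) and Spry4 (0.41) had the next largest ratios in size, all higher in p53-/- MEFs and under the limit. Normexp correction took the dim genes Dusp5 and Spry4 to 0.41 and 0.25. Dusp14 had a ratio of 0.27, and Dusp1 (-0.27), Spred1 (-0.24), Dusp6 (-0.18), Spry2 (-0.12) and Spred2 (-0.03) had ratios below 0.

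With doxorubicin, 0 of the 10 genes passed the limit between the genotypes in either direction, where 11.9% of 17918 genes were at least 2-fold higher in p53-/- MEFs and 10.3% at least 2-fold lower. Spry1 came nearest, at -0.93 on the log2 scale (1.91-fold lower in p53-/- MEFs), and -1.01 with the array median as the scale. Spry4 followed at 0.64, Dusp1 at 0.43, Spred1 at 0.26 (-0.10 by its other probe), Dusp6 at 0.21 and Dusp4 at 0.20. The ratio of the dim gene Spry4 was 0.37 with normexp correction. The ratios of Dusp5, Dusp14 and Spry2 were within the spot SD, at -0.02, -0.06 and 0.00, and that of Spred2 was -0.20. These ratios and the untreated ones share no array, while both share arrays with the ratios for doxorubicin.

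The response to doxorubicin differed between the genotypes by less than 2-fold for all 10 genes. As WT minus p53-/- on the log2 scale, 8.38% of 16538 genes had a difference of at least 1 and 9.86% of at most -1, and 0 of the 10 genes were in either class. The largest differences below 0 were those of Dusp1 (-0.70) and Dusp6 (-0.39), which rose more in p53-/- MEFs, and of Spred1 (-0.50), which fell more in WT MEFs. The largest above 0 were those of Dusp5 (0.69), Dusp14 (0.33) and Dusp4 (0.32), which rose more in WT MEFs. Each was larger than the spot SD for such a difference, 0.12 for bright and 0.29 for dim probes, but the other probe of Spred1 gave -0.08. Spred2 had 0.17, Spry4 -0.23, Spry2 -0.12 and Spry1 -0.09, of which that of Spred2 alone was above its spot SD.

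The other genes of the pathways were taken from lists. Over all measured genes, 11% were at least 2-fold higher and 10.4% lower with doxorubicin in WT MEFs. In p53-/- MEFs these shares were 9.24% and 6.89%. Of 6 other MAPK phosphatase genes, 3 were at least 2-fold higher with doxorubicin in WT and 2 in p53-/- MEFs, and 0 were lower in either. Dusp2, a nuclear phosphatase of ERK and p38 known from immune cells, had signals of 166 and 2598 in untreated and treated WT and of 268 and 2216 in untreated and treated p53-/- MEFs, and its log2 ratio was 4.16 in WT and 2.68 in p53-/- MEFs. Dusp9, a cytoplasmic phosphatase of ERK, rose in WT MEFs (log2 3.22) and had a ratio of 0.24 in p53-/- MEFs, from signals of 520 to 4238 and of 1049 to 1590. Dusp8 and Dusp10, phosphatases of JNK and p38, had log2 ratios of 1.48 and 0.89 in WT and of 0.64 and 1.22 in p53-/- MEFs. Of the remaining Sprouty and Spred genes, Spry3 was not well above background on any array, and Spred3 had a log2 ratio of -0.48 in WT MEFs and was not well above background in treated p53-/- MEFs.

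The RAS-ERK list held kinases and adaptors that lead to ERK. Of 22 measured genes, 1 rose and 2 fell at least 2-fold in WT MEFs, and of 21 in p53-/- MEFs 0 did so, with median log2 ratios of -0.34 and -0.12. In WT MEFs Hras1, the name in the files for Hras, rose (log2 1.998), while Mapk3, which encodes ERK1, fell (-1.38). Their log2 ratios in p53-/- MEFs were 0.32 and -0.21. Of the JNK and p38 list, 3 of 13 measured genes rose and 3 fell in WT MEFs, and 1 of 14 rose and 2 fell in p53-/- MEFs. Of the 4 p38 genes, Mapk13 rose in WT MEFs (log2 2.59 in WT, 0.76 in p53-/-) and Mapk12 fell in both genotypes (-1.96, -1.37). Mapk11 fell in WT MEFs (-1.27, 0.20). Mapk14 had ratios of 0.03 and -0.18, and of 0.66 and 0.17 by its other, dimmer probe. Mapkapk3, which encodes a kinase downstream of p38, rose in both genotypes (2.11, 1.28), and the p38 activators Map2k3 (1.36, 0.82) and Map2k6 (-1.07, -0.41) passed the limit in WT MEFs in opposite directions.

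Among 21 genes listed as responsive to ERK signaling, 19 were measured in each genotype. In WT MEFs 7 rose and 1 fell at least 2-fold (median log2 ratio 0.63), where 11% and 10.4% of all measured genes did so. In p53-/- MEFs 6 rose and 0 fell (median 0.62), where 9.24% and 6.89% did so. Ratios below 0 were found for 6 of the 19 in WT and for 2 in p53-/- MEFs. The gene that fell was Epha4 (log2 -1.26 in WT, -0.58 in p53-/-). The AP-1 subunit gene Fosl1 (log2 3.02 in WT, 1.33 in p53-/-), Phlda1 (2.63, 1.69), the receptor gene Epha2 (2.52, 1.90), the growth factor gene Ereg (1.32, 1.97) and Fos (1.11, 1.70) rose in both. Junb rose in p53-/- MEFs (1.52) and had a ratio of 0.82 in WT MEFs. Of 6 genes of proteins that bind or regulate Sprouty, Cav1, which encodes caveolin, rose in both genotypes (1.08, 1.498), and the ubiquitin ligase gene Cblb fell in p53-/- MEFs (-1.89) and had a ratio of -0.88 in WT MEFs.

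**Figure D3:**
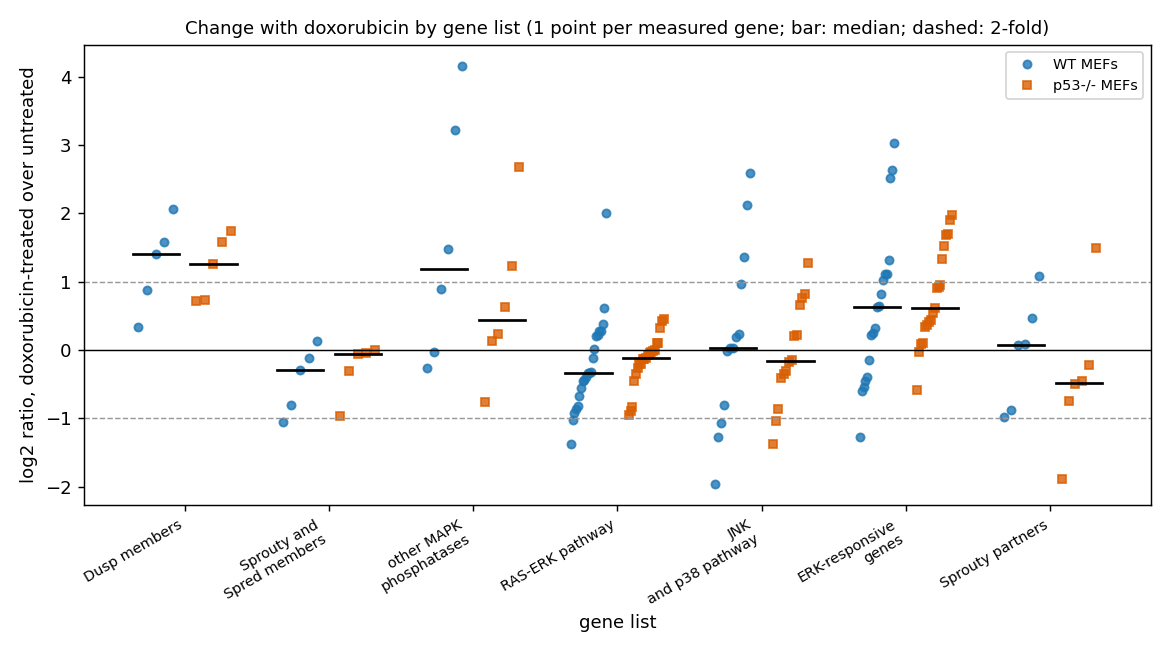
Log2 ratio of doxorubicin-treated over untreated MEFs (vertical axis) for the phosphatase genes, the Sprouty and Spred genes and 5 lists of related genes (horizontal axis). Each point is 1 measured gene, blue circles are WT and orange squares p53-/- MEFs, black bars are medians and dashed lines the 2-fold limit. The phosphatase medians of 1.40 in WT and 1.26 in p53-/- MEFs lie above those of all 5 lists. The nearest were 1.18 and 0.44 for other MAPK phosphatases and 0.63 and 0.62 for ERK-responsive genes. The medians were 0.03 and -0.16 for JNK and p38, 0.08 and -0.48 for Sprouty partners and -0.34 and -0.12 for RAS-ERK.

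The phosphatase ratios kept their sign under other scalings. Under the 75th percentile, the array median, quantile normalization and normexp correction all 5 were above 0 in both genotypes. The lowest was Dusp6 in WT MEFs with the array median as the scale, at log2 0.06, which is within the spot SD of 0.09. Over the same settings the ratio of Spry1 ran from -1.32 to -1.04 in WT and from -1.26 to -0.96 in p53-/- MEFs.

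**Figure D4:**
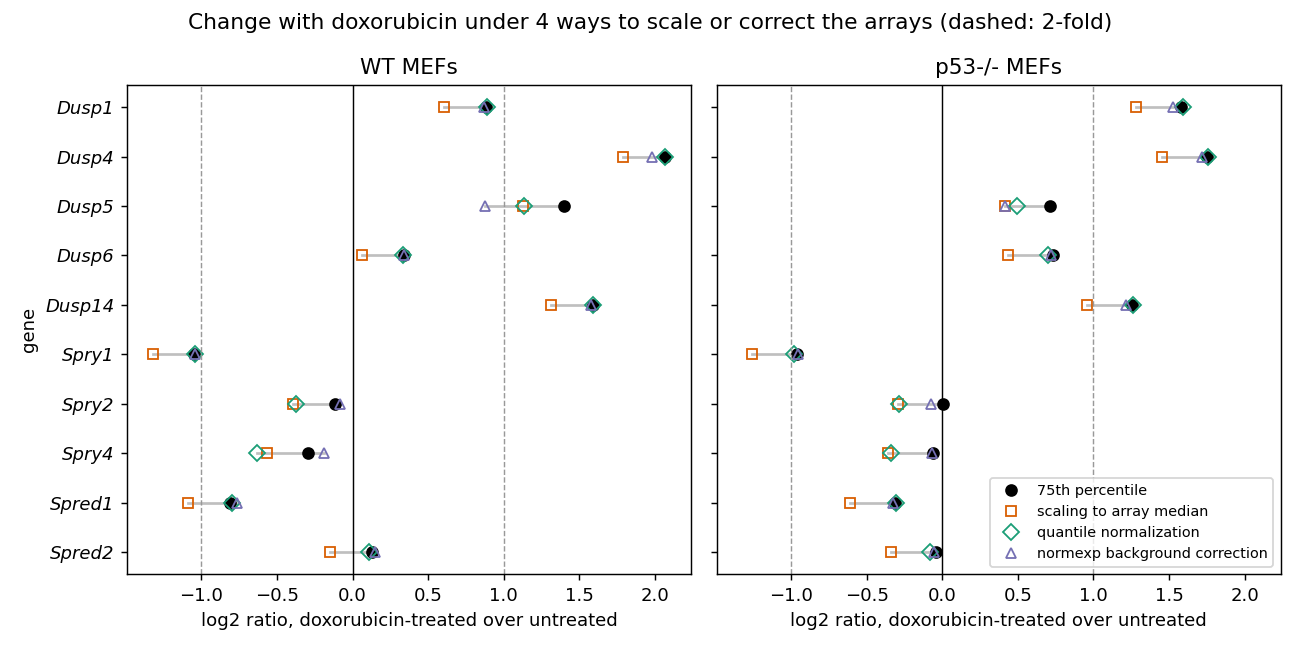
Log2 ratio of doxorubicin-treated over untreated MEFs (horizontal axis) for each of the 10 genes (vertical axis) in WT (left) and p53-/- MEFs (right), under 4 ways to scale or correct the arrays, which the symbols mark. Dashed lines are the 2-fold limit. Scaling to the array median moved all ratios to the left, and normexp correction moved Dusp5 to 0.88 in WT MEFs.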

How the data were processed

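RNA from 4 groups of MEFs was measured on Agilent mouse 4x44K v2 one-color arrays. The authors deposited, for each spot, a processed intensity that Agilent Feature Extraction (version 10.7.3.1, from the file headers) had background-subtracted and detrended within the array, but not normalized between arrays, beside mean and background intensities. The other deposited values are flags for well above background, saturation and outliers, coded as 0 or 1 by that program. The authors' value table held the same intensities (0 of 44397 spots differed by over 0.1 percent). Samples were grouped by their titles.

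Here, control and outlier spots were left out, repeat spots were averaged as log2 values, and each array was divided by its 75th percentile over 39429 probes. A gene, named as in the files, was its probe with the highest mean, measured where both arrays of a ratio marked it as well above background. The spot SD came from 399 probes with 10 spots each. For signals of 80 to 350 it is the dim value and from 350 the bright one. The number of arrays limits the precision. The steps were tested on simulated data. The alternatives tried were quantile normalization, the array median as the scale, normexp (offset 50), no filter on dim probes, a filter over all 4 arrays, the mean of a gene's probes, outlier spots kept, the deposited table, and calls at 1.5-fold and 3-fold. With 1 slide, no block for the slide could be fitted.

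Named genes were the 10 members with every probe, at most 6 genes per pathway list that passed 2-fold in either genotype, Trp53, Cdkn1a and Mdm2, and the 3 genes nearest to the member of widest range. Marker genes, Dusp7, Dusp16, Epha4, Spry3, Spred3 and Mapk14 were named besides, after their values were seen. Counts and medians of the lists include genes whose own values are not reported here. The members, lists and motifs were chosen with earlier results of these data known. Positions of probes were read from the files (mm9) and promoters from RefSeq (GRCm38.p6). Exon and UTR annotation of the probes was not analysed here. Python 3.11.15 with numpy 2.4.6, pandas 2.3.3 and matplotlib 3.10.9, and R 4.3.3 with limma 3.58.1 were used.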

Additional observations from a re-analysis of the deposited data

How the results depend on the processing

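No test was run, since each group had 1 array, so leaving out an array was not possible. No paired analysis was possible because each group had 1 array and no result came from a test. Under the 8 alternatives of scaling, background, filter, spot and probe choice, no called ratio of the 10 genes changed sign. With the array median as the scale, more members were at least 2-fold lower with doxorubicin. Their count went from 1 to 2 in WT and from 0 to 1 in p53-/- MEFs. Over all measured genes it went from 1831 to 2797 in WT and from 1170 to 2104 in p53-/- MEFs. Members lower in treated p53-/- than treated WT MEFs went from 0 to 1, and all such genes from 1847 to 2041. With quantile normalization 0 members were lower in untreated p53-/- MEFs, while all such genes went from 453 to 425. With a limit of 1.5-fold, 4 members were higher and 2 lower with doxorubicin in WT MEFs (20.6% and 20.0% of all measured genes), and 5 and 1 in p53-/- MEFs (19.4% and 15.9%). At that limit 1 member was higher and 1 lower in untreated p53-/- than WT MEFs (8.73% and 8.68%), 1 and 1 between the treated genotypes (22.8% and 19.7%), and 1 and 1 for the difference of responses (18.4% and 19.9%). With a limit of 3-fold, 2 members were higher in WT MEFs and 0 lower (5.07% and 4.18%), against 1 and 0 in p53-/- MEFs (3.82% and 2.26%), and 0 were lower in untreated p53-/- MEFs (0.716%).

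Over all genes, 1935 were higher and 1831 lower with doxorubicin in WT (51.4% of those past the limit were higher) and 1569 and 1170 in p53-/- MEFs (57.3%). Scaled to the array median these were 1321 and 2797 (32.1%) and 956 and 2104 (31.2%), and without the filter on dim probes 4920 and 2878 and 4732 and 2361. The cause was not tested. Of 50 member values, 20 moved by more than the spot SD with the array median. These 20 were the ratios with doxorubicin of all members in both genotypes. With quantile normalization 6 of the 50 moved, with normexp 5 and with the mean of a gene's probes 3.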
